A study of Mus musculus with 59 samples.

Results

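The 10 genes described here make and regulate the machinery that loads peptides onto MHC class I molecules: the heavy chains H2-K1 and H2-D1, the light chain B2m, the peptide transporter subunits Tap1 and Tap2, the loading factor Tapbp, the immunoproteasome subunits Psmb8, Psmb9 and Psmb10, and the transactivator Nlrc5. They were taken by symbol, after the accession given for each array probe had been matched to its current gene symbol. In all 12 probes of 55681 on the array, and 10 genes of 37163, belonged to the set. H2-K1 and Nlrc5 had 2 probes each and the other members 1 probe. Where there were 2, the probe with the higher mean Cy5 signal in the tissue stands for the gene. The other is described in forestomach, and for Nlrc5 in the vehicle mice of each tissue too.

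The arrays came from male Muta™Mouse animals, a transgenic strain used in mutation assays, aged about 16 weeks. They were dosed by oral gavage for 28 days with olive oil alone (vehicle, 0 mg/kg-bw/day) or with the polycyclic aromatic hydrocarbon benzo(b)fluoranthene (BbF) in olive oil at 25 (low), 50 (medium) or 100 (high) mg/kg-bw/day, and lung, liver and forestomach were removed 72 h after the last dose. Each of the 12 tissue and dose groups held 5 mice, except low-dose lung with 4, which gives 59 arrays of 20 mice. Mouse numbers 1 to 5 were vehicle, 6 to 10 low, 11 to 15 medium and 16 to 20 high, and a number is the same animal in each tissue. BbF is the compound of the sample titles and the treatment text, whose doses are used here. The labels disagree, since benz(a)anthracene stands in another field and in the design. All mice carried the same transgene and no group lacked it. Every value below is log2(Cy5/Cy3), the tissue RNA (Cy5) over a reference RNA pooled from mouse cell lines (Cy3) on the same array. A value of 0 means equal signal of tissue and reference, and 1 unit is a 2-fold difference. Levels of different genes were not compared, since each ratio also depends on that gene's level in the reference.

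Nearly every nucleated cell shows fragments of its own proteins on class I molecules to CD8 T cells. The immunoproteasome, in which Psmb8, Psmb9 and Psmb10 take the places of the standard catalytic subunits Psmb5, Psmb6 and Psmb7, cuts proteins into peptides, Tap1 and Tap2 carry them into the endoplasmic reticulum, and Tapbp (tapasin) holds the transporter next to an empty heavy chain paired with B2m. Interferon gamma, in part through Irf1, and the class I transactivator Nlrc5 raise transcription of these genes, in epithelial cells as well as in leukocytes.

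Upstream sequences are shown because the members are known to be controlled together, and because Psmb9 and Tap1 start back to back. RefSeq windows of GRCm38.p6 were held for 8 of the 10 members, 9 windows in all, with none for Tap2 and Nlrc5. Capitals mark matches on either strand to motifs of known control elements: GAANNGAAA or GAANNNGAAA (core of the interferon-stimulated response element), TTCNNNGAA (interferon gamma-activated site), GGGATTCCC or GGANTTTCC (NF-κB), TGACG (found in cAMP response elements and in the X2 site of class I promoters) and CCAAT. The stretch between the starts of Psmb9 and Tap1 lies at chr17:34187331-34187555 (225 bases, + strand, Tap1 to the right), and the other 3 are the 200 bases before each start: H2-K1 at chr17:34000348-34000547 (- strand), H2-D1 at chr17:35262894-35263093 (+ strand) and B2m at chr2:122147487-122147686 (+ strand).
Psmb9 to Tap1: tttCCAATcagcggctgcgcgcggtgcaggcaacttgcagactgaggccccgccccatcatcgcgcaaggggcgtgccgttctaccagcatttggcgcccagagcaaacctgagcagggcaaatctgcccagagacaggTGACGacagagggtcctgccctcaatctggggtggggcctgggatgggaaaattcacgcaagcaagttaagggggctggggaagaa
H2-K1: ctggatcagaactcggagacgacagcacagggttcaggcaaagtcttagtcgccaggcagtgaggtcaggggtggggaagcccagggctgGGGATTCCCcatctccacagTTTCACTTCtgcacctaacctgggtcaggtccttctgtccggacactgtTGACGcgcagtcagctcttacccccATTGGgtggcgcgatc
H2-D1: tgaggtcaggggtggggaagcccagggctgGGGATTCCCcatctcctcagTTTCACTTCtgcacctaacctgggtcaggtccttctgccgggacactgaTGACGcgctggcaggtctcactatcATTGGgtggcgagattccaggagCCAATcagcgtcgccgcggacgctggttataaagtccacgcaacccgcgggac
B2m: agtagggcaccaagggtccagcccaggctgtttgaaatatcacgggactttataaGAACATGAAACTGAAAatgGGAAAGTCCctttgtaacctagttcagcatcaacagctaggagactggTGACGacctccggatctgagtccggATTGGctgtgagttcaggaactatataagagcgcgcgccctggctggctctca
In H2-K1 and H2-D1 the letters GGGATTCCC, found in 0.301% of 32851 upstream windows of 250 bases, stood close to GAANNGAAA read on the opposite strand (6.31% of windows), with TGACG (17.8%) and CCAAT (33.8%) nearer the start. B2m held GAANNNGAAA (6.76%) at 2 overlapping places, GGANTTTCC (1.07%) on the opposite strand, TGACG and CCAAT. The stretch shared by Psmb9 and Tap1 held TGACG and CCAAT, and none of the interferon or NF-κB letters. Outside the printed stretches, Psmb8 had TTCNNNGAA (7.02% of windows). A match is a description of the letters of the reference genome. The animals' own alleles were not read, and no match was tested for binding.

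The tissue labels were checked with 6 identity genes: Sftpc and Scgb1a1 were higher on every lung array than on any array of the other tissues, Alb and Apoa2 likewise in liver and Krt13 in forestomach, while Krt4 in forestomach (lowest 5.41) overlapped its highest value elsewhere (5.73). That value was from the lung of low-dose mouse 6, which also had Krt13 at 3.43, where all other lungs had at most 0.36 for Krt4 and -0.10 for Krt13. In forestomach, medium-dose mice 12 and 15 had the highest Alb (4.79 and 4.30) and Apoa2 (3.18 and 2.01). Without mouse 6 the members' median low-dose change in lung, given below, was 0.15 in place of 0.06, and the medium-dose median in forestomach was 0.56 without mouse 12 and 0.50 without mouse 15 in place of 0.54, with no member called. Vehicle mouse 2 had Cyp1a1, an enzyme induced by such hydrocarbons, at 8.39 in lung and 4.39 in forestomach, where the other vehicle mice had 2.06 to 2.97 and 0.36 to 1.85, and without it the high-dose medians were -0.155 in lung and 0.59 in forestomach. What lies behind these 4 animals' values was not tested. Arrays of each tissue lay on 3 slides, and 1 slide stood apart: on the 8 arrays of the third liver slide 10.8% to 12.9% of probes were well above background, against 37.1% to 68.8% on all others. None of the 12 member probes was saturated on any array. All 10 members were well above background on all 19 lung arrays. In liver Tap1 and Nlrc5 were not on 8 of 20 arrays and Tapbp not on 1, and in forestomach Tap1 was not on 2 of 20, both of them vehicle, so that its vehicle level there rests partly on dim spots. As these are whole tissues, fewer cells of a type and less RNA per cell cannot be told apart. The p-values below are from limma's test with Benjamini-Hochberg adjustment over all probes, and a gene was called when its adjusted p was 0.05 or less and its change 1.5-fold (0.585 on the log2 scale) or more.

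Before any question of dose, the vehicle mice showed that the forestomach had the lowest mean of the 3 tissues for 9 of the 10 members. Against forestomach, 9 of the 10 members were called higher in lung (all but Nlrc5, median difference 2.30 over the 10 members against -0.01 over all genes), where 12.5% of all genes were called higher. In liver 7 were called higher than in forestomach (all but Tapbp, Psmb10 and Nlrc5, median 1.42 against 0.00), where 9.08% of all genes were called higher. Lung and liver lay closer: 5 members (H2-D1, Tap2, Tapbp, Psmb9 and Psmb10) were called higher in lung and none in liver (16.9% of all genes were called higher in lung), and the median difference was 0.58. Tissue and slide cannot be told apart directly, since each slide held 1 tissue, but the same genes were called with slide as a random block. With each array centred on its median in place of loess, no member was called between liver and either other tissue. The differences were of similar size for some members (lung minus liver 1.53 for Tap2, 1.15 for Tapbp and 1.53 for Psmb10, liver minus forestomach 2.61 for B2m and 2.36 for H2-K1), while their standard errors rose to 0.96 to 1.29. Tapbp and Psmb10, not called between liver and forestomach in either case, changed sign there (-0.12 and -0.01).

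B2m, the light chain shared by all classical class I molecules, had a vehicle level of -1.34 ± 0.45 in forestomach (SD, n = 5), 1.35 ± 0.35 in lung and 1.80 ± 0.47 in liver. Its lung level exceeded that of forestomach by 2.69 ± 0.27 (SE, adjusted p = 2.11e-10) and its liver level by 3.14 ± 0.33 (adjusted p = 1.46e-09), 6.46-fold and 8.80-fold. Lung and liver were neighbours that did not differ beyond their spread (-0.44 ± 0.25, adjusted p = 0.181). For H2-K1 the vehicle means were -0.04 ± 0.36 in forestomach, 2.45 ± 0.40 in lung and 2.82 ± 0.25 in liver, and again the latter pair was not called (-0.37 ± 0.16, adjusted p = 0.0637). H2-D1 had a different order, 0.37 ± 0.15 in forestomach, 1.75 ± 0.25 in liver and 2.47 ± 0.30 in lung, with lung called above liver by 0.72 ± 0.14 (adjusted p = 4.83e-05).

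Among the genes of peptide supply, Psmb9 showed the widest gap to lung. Its vehicle means were -1.60 ± 0.54 in forestomach, 0.66 ± 0.49 in liver and 1.46 ± 0.37 in lung (lung over forestomach 3.06 ± 0.38, adjusted p = 2.19e-08, 8.35-fold). Psmb8 followed with -2.36 ± 0.32, 0.19 ± 0.37 and 0.62 ± 0.39, its lung and liver values differing by 0.43 ± 0.17, under the fold threshold. Psmb10 separated lung from both other tissues instead: 1.56 ± 0.16 in lung, -0.03 ± 0.16 in liver and -0.37 ± 0.12 in forestomach. Liver and forestomach did not pass the test (0.34 ± 0.15, adjusted p = 0.0782). Every vehicle liver lay above every vehicle forestomach, as for 10.3% of all genes, but the ranges nearly touched (-0.195 against -0.197). The standard subunits did not share the tissue orders of these immunoproteasome subunits. Of Psmb5, Psmb6 and Psmb7, the only calls were for Psmb7, lower in lung than in liver (-1.2 ± 0.10) and higher in liver than in forestomach (0.62 ± 0.10).

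Tap2, a subunit of the transporter, was at -1.67 ± 0.16 in forestomach, -0.53 ± 0.16 in liver and 0.94 ± 0.37 in lung, and all 3 pairs were called. Its partner Tap1 was at -1.23 ± 0.20, 0.24 ± 0.35 and -0.09 ± 0.44, so that liver and lung did not differ beyond their spread (-0.32 ± 0.17 lung minus liver, adjusted p = 0.153). Tapbp was at -0.39 ± 0.15, -0.18 ± 0.15 and 0.85 ± 0.18, with lung called above the other two. Nlrc5 was the member with no tissue order: its vehicle means were 0.38 ± 0.36 in forestomach, 0.01 ± 0.35 in liver and -0.09 ± 0.57 in lung, and no pair was called. Its dimmer probe, well above background on 1 of 5 forestomach, 3 of 5 liver and 1 of 5 lung vehicle arrays, gave -0.01, 0.06 and -0.16.

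**Figure D1:**
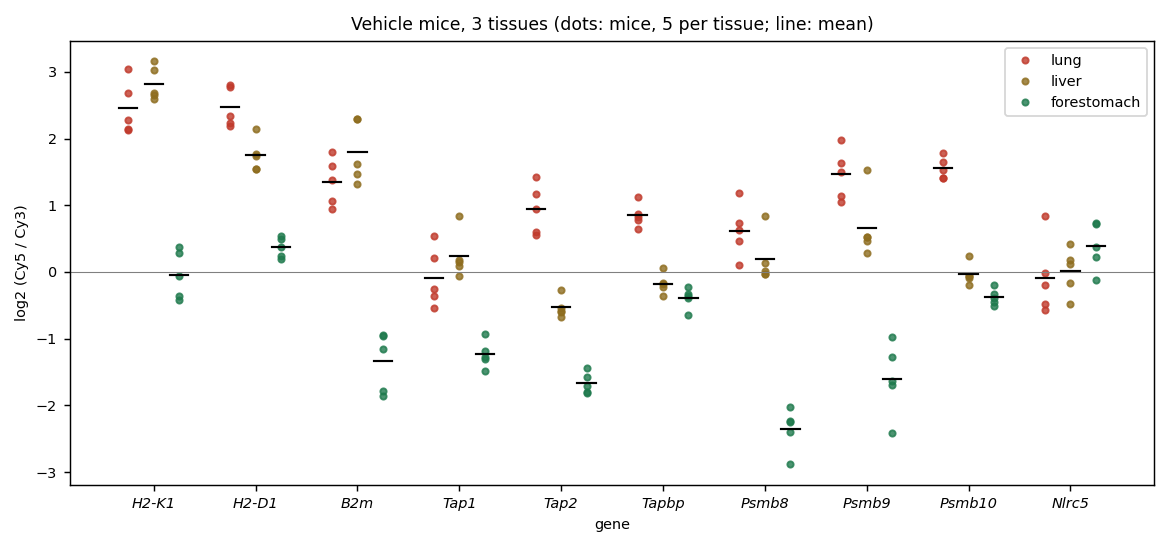
Levels of the 10 members in vehicle mice. The horizontal axis lists the genes and the vertical axis gives log2(Cy5/Cy3), each dot is 1 mouse (5 per tissue) and each short line a mean. For 9 genes the lung dots all lie above the forestomach dots, as they do for 16.1% of all genes, while the 3 tissues overlap for Nlrc5.

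Other genes of the class I system had their own tissue orders. Of 18 other class I heavy chains or class I-like genes on the array, 13 were called higher in lung than in forestomach, H2-Q8 (3.37 ± 0.45), H2-Q7 (2.35 ± 0.26), H2-T23 (2.28 ± 0.25) and H2-Q6 (2.26 ± 0.24) most. Against liver only 4 were higher in lung and 6 lower. The lower ones were led by the class I-like genes Azgp1 (-7.02 ± 0.44) and Cd1d1 (-4.13 ± 0.49) and by H2-Q10 (-3.40 ± 0.25), the last a secreted class I molecule known from liver. Irf1, the interferon-induced activator of class I and immunoproteasome genes, was higher in lung than in forestomach by 3.32 ± 0.25 and than in liver by 2.12 ± 0.16, and higher in liver than in forestomach by 1.2 ± 0.26. Heavy chain genes are similar in sequence, and cross-hybridization of their probes was not tested. Markers of leukocytes moved with the lung values: 11 of 14 were called higher in lung than in forestomach (Ptprc, the pan-leukocyte CD45, by 1.95 ± 0.15), 9 higher and 1 lower in lung than in liver, and 2 of 14 higher in liver than in forestomach. Their part in the tissue order of the members was not tested.

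The dose groups measured the effect of repeated BbF in each tissue. In forestomach, the site of first contact, the mean of every one of the 10 members was higher than vehicle at every dose, but no member was called at any dose. Their median change was 0.66 (low), 0.54 (medium) and 0.69 (high), while that over all genes was -0.000710, -0.00103 and -0.000976. Single changes ran from 0.28 to 1.07, 0.19 to 0.99 and 0.24 to 1.24. The adjusted p of the members was at least 0.916, 0.841 and 0.243 in the same order. The shares of all genes called higher were 0%, 0% and 0.0915%, that is 0, 0 and 34 genes, so that few genes of any kind passed the test in this tissue. At an unadjusted p under 0.05, 8, 3 and 7 of the 10 members were higher, beside 1.99%, 2.74% and 4.79% of all genes. The 3 dose comparisons share the same 5 vehicle arrays and are not separate evidence.

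Psmb9 had the largest change. Its values in vehicle mice 1 to 5 were -0.98, -2.41, -1.70, -1.27 and -1.64, and in high-dose mice 16 to 20 they were 0.06, -0.95, -0.81, 0.76 and -0.87. All 5 high-dose mice were above all vehicle mice by a narrow margin, -0.95 against -0.98. The change was 1.24 ± 0.49 (SE, 95% confidence interval 0.215 to 2.26, adjusted p = 0.457), 2.36-fold. At the medium dose the 5 values ran from -1.55 to 0.21, and at the low dose mice 6 to 10 gave -1.28, 1.33, -1.68, 0.24 and -1.24, only 2 of them above every vehicle mouse.

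Psmb10 changed less but varied less. The vehicle values were -0.51, -0.39, -0.20, -0.45 and -0.33 and the high-dose values 0.10, -0.13, -0.14, 0.47 and 0.16, without overlap. The medium dose did not overlap vehicle either, its lowest value being -0.15, and the low dose did. The high-dose change was 0.465 ± 0.133 (0.19 to 0.74, adjusted p = 0.243, 1.38-fold), below the fold threshold. With each array centred on its median in place of loess it was 0.78 ± 0.16 and called (adjusted p = 0.0339), the only alternative in which a member was called at a dose. Psmb8, the third immunoproteasome subunit, ran from -2.88 to -2.02 in vehicle and from -2.01 to -0.68 at the high dose (0.78 ± 0.39, adjusted p = 0.591), again with no overlap but with the ranges touching. The 3 standard subunits gave changes of -0.10 ± 0.06 (Psmb5), -0.08 ± 0.07 (Psmb6) and -0.01 ± 0.12 (Psmb7) at the high dose, none called.

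Tap2 was the only member without overlap with vehicle at all 3 doses. Vehicle mice gave -1.57, -1.81, -1.80, -1.72 and -1.44, low-dose mice -1.31, -0.37, -1.10, -0.69 and -1.40, medium-dose mice -1.29, -1.38, -0.84, -1.10 and -1.12, and high-dose mice -1.14, -1.37, -1.27, -0.49 and -1.25. Every exposed mouse was above every vehicle mouse, with low, medium and high group changes of 0.69 ± 0.18, 0.52 ± 0.18 and 0.57 ± 0.18 (adjusted p = 0.916, 0.841 and 0.311). Tap1 overlapped vehicle at each dose. Its changes were 0.63 ± 0.29, 0.57 ± 0.29 and 0.64 ± 0.29, and its high-dose values exceeded the vehicle maximum in 4 of 5 animals. Tapbp changed least of all members, by 0.28, 0.19 and 0.24.

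Of the molecules that carry the peptide, H2-K1 was at 0.37, -0.37, -0.42, 0.28 and -0.06 in vehicle mice and at 0.98, 0.42, 0.68, 1.53 and 0.32 in high-dose mice, which overlap by 1 mouse. The change was 0.83 ± 0.35 (adjusted p = 0.492), and the second H2-K1 probe went the same way, with a vehicle mean of -0.07 ± 0.35 and a high-dose mean of 0.48 ± 0.37. H2-D1 changed by 0.47 ± 0.25 and B2m by 0.74 ± 0.34, and for both genes 4 of the 5 exposed animals exceeded the vehicle maximum. Nlrc5, the regulator, had vehicle values of -0.12, 0.71, 0.37, 0.73 and 0.23 and high-dose values of 0.83, 1.19, 1.58, 1.81 and 1.43. They did not overlap, and the change was 0.98 ± 0.325 (0.30 to 1.66, adjusted p = 0.327, 1.98-fold). The dimmer Nlrc5 probe did not show this (-0.01 ± 0.16 in vehicle and 0.00 ± 0.16 at the high dose), and it cleared background on only 1 vehicle and 3 high-dose arrays of 5 each, so the 2 probes disagree and the change of Nlrc5 rests on 1 of them.

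**Figure D2:**
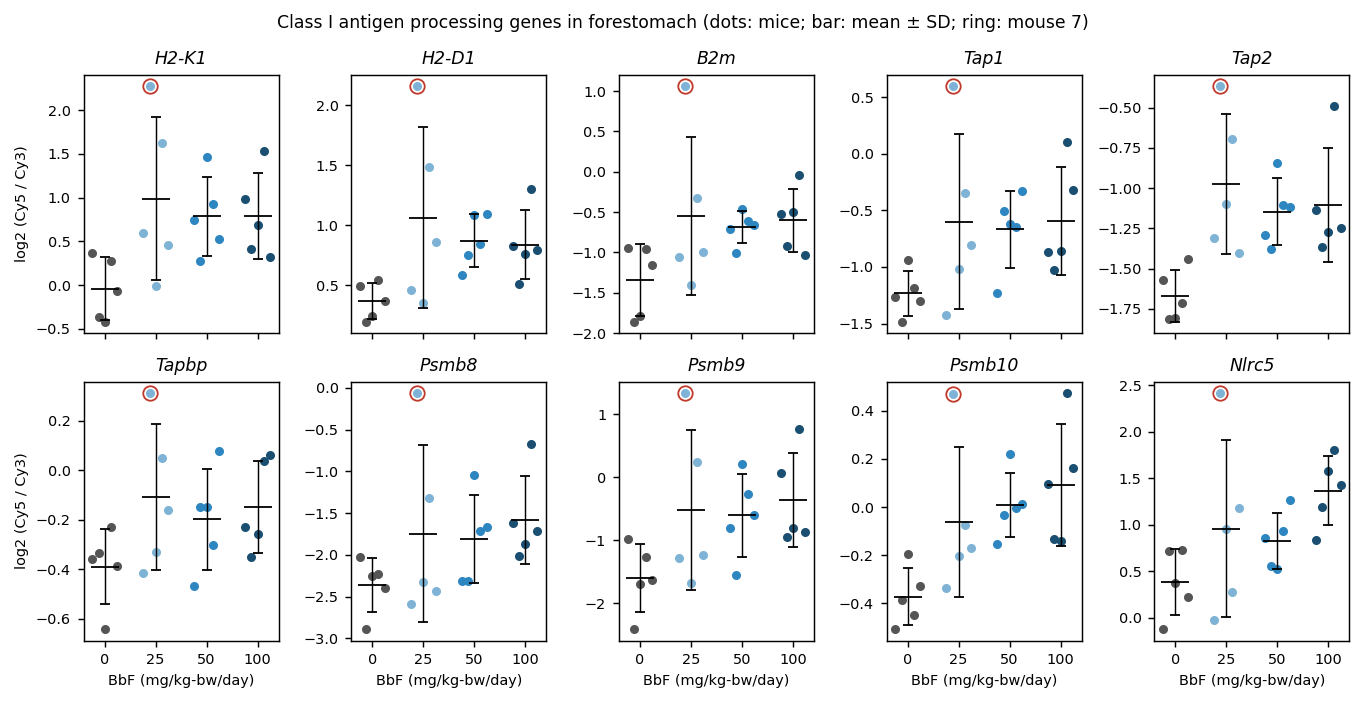
Members in forestomach by dose. The horizontal axis of each panel is the BbF dose in mg/kg-bw/day and the vertical axis log2(Cy5/Cy3), on a scale of its own in each panel; dots are mice, bars the mean ± SD, and the ring marks mouse 7. The high-dose dots lie above all vehicle dots for Tap2, Psmb8, Psmb9, Psmb10 and Nlrc5, and mouse 7 is the highest low-dose mouse in every panel.

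Counted over members, every exposed mouse lay above every vehicle mouse for 1 member at the low dose (Tap2), 3 at the medium dose (H2-D1, Tap2 and Psmb10) and 5 at the high dose. The corresponding shares of all genes were 0.301%, 0.452% and 1.32%. Counted over mice, 1 low-dose mouse (mouse 7), 1 medium-dose mouse (mouse 15) and 2 high-dose mice (mice 16 and 19) were above all vehicle mice in all 10 members. Mice 7 and 15 were also among the 3 forestomachs with the highest Alb (3.41 and 4.30). The highest of them, mouse 12 (4.79), had the lowest mean over the members in the medium group (-0.53). It also had the fewest members above all vehicle mice there (5). The part of Alb in the members' values was not tested. Counts of such members per mouse were 2 to 10 (low), 5 to 10 (medium) and 7 to 10 (high).

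A single animal weighed on the low dose. Mouse 7 was the highest of its group in all 10 members, for example B2m at 1.06 where the other low-dose mice ran from -1.40 to -0.33, and its mean over the members was 1.02 against a group median of -0.47. Without it the median low-dose change fell from 0.66 to 0.36, and Psmb8 was 0.19, Nlrc5 0.21 and H2-K1 0.71. At the high dose mouse 19 was the highest in 9 of the 10 members, and leaving out any 1 mouse kept the median change between 0.51 and 0.78.

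The mean change rose at each step of dose for 1 member, Psmb10, and without mouse 7 for 7 of 10 (all but H2-K1, H2-D1 and Tap2), a count made after the values were seen and with no test. A trend over dose called no member, with a fitted change from vehicle to the high dose of 0.53 in median (adjusted p at least 0.292, 0.0807% of all genes called higher, 3 of 10 members and 4.88% of all genes higher at an unadjusted p under 0.05). Psmb10 (0.415 ± 0.131) and Nlrc5 (0.865 ± 0.307) had the smallest p-values of this trend. Averaging the 3 doses against vehicle, an alternative chosen after the values were seen, gave a median of 0.63 and called no member either. Within each of the 3 forestomach slides the high-dose mean exceeded the vehicle mean for all 10 members, with medians of 0.83, 0.54 and 0.66 over slides of 2, 2 and 1 vehicle arrays and as many high-dose arrays.

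In lung, where BbF called the most genes, no member was called. Their median change was 0.06, -0.05 and -0.10 at the low, medium and high dose, and the count of 0 stood beside 0.431%, 0.584% and 1.77% of all genes called in either direction. No member had an unadjusted p under 0.05 (10.1%, 16.1% and 20.9% of all genes did). At the high dose the 10 changes lay between -0.18 (B2m) and 0.17 (Tap1), and their 95% confidence intervals reached at most from -0.52 to 0.55, inside a 1.5-fold change in either direction. B2m, for instance, ran from 0.94 to 1.79 in vehicle lungs and from 0.88 to 1.40 in high-dose lungs. The lung result depended on the normalization: with each array centred on its median in place of loess, all 10 members were higher at every dose, with medians of 0.32, 0.26 and 0.37 where all genes had 0.06, 0.07 and 0.09. At the high dose 5 of them then had an adjusted p of 0.05 or less (Tapbp 0.54 ± 0.12, Psmb8 0.51 ± 0.13, Tap1 0.43 ± 0.13, H2-K1 0.39 ± 0.10 and H2-D1 0.345 ± 0.10, adjusted p from 0.00356 to 0.0344, beside 17.9% of all genes), each under the fold threshold and so not called, and the intervals of 7 of the 10 reached a 1.5-fold change. The check genes of the response were called on the same arrays: the AhR targets Cyp1a1 (4.47 ± 1.13) and Cyp1b1 (4.44 ± 0.68) and the p53 target Cdkn1a (2.66 ± 0.21) were higher at the high dose. None of these 3 genes was called in liver or forestomach at any dose. Their median change was 0.16, 0.28 and 1.84 in liver and -0.36, -0.35 and 0.65 in forestomach. In liver at the high dose 2 of the 3 had an unadjusted p under 0.05, beside 8.08% of all genes. Liver Cyp1a1 was at 6.68, 5.03 and 5.29 in high-dose mice 17, 19 and 20 and at 0.24 and 0.03 in mice 16 and 18. Vehicle livers had at most 2.84, in mouse 2. On the third liver slide Cyp1b1 was at -0.36 in vehicle mouse 5 and -0.37, -0.33 and -0.13 in high-dose mice 18 to 20. On the other slides it was -2.27 to -1.99 in vehicle mice 1 to 4, -2.27 in high-dose mouse 16 and -0.275 in mouse 17. Cdkn1a was at -0.77 in vehicle mouse 5 and -3.21 to -2.64 in the other vehicle mice. At the high dose it was -1.24 and -1.06 in mice 16 and 17 and -0.40 to -0.11 in mice 18 to 20. The part of the slide in these values was not tested. Within the lung slides the sign of the members' high-dose change differed. Medians were 0.01, -0.52 and 0.30 over the members on slides with 1 or 2 arrays of each group. The lung trend over dose called no member (median -0.12, or 0.31 with median centring; 1.49% of all genes called).

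Liver also gave no call among the members at any dose (median changes of 0.05, -0.06 and 0.04), beside 0%, 0% and 0.00538% of all genes. Dose and slide were not balanced here. Slide 3, where few probes were well above background, held 1 vehicle and 3 high-dose livers. Slide 1 held 2 vehicle and 0 high-dose livers. The absence of calls thus cannot be read apart from slide. Within slides the members' median high-dose minus vehicle difference was 0.09 on slide 2 and 0.10 on slide 3, with no test. With each array centred on its median, the members' median changes were -0.72, -0.92 and -1.63, still with no call. Standard errors of the members were then 0.51 to 1.75, and their high-dose intervals reached from -6.01 to 1.43. These medians are thus imprecise. Tap2 at the medium dose, 0.23 ± 0.09, was the single change with an unadjusted p under 0.05 (adjusted p = 0.977), beside 4.61% of all genes. Psmb10 at the high dose was 0.31 ± 0.15 (adjusted p = 0.669), and its interval of -0.01 to 0.63 does not leave out a 1.5-fold change. Within slides its high-dose mean minus its vehicle mean was 0.07 on the second slide and 0.57 on the third. B2m had the widest liver interval, -0.40 to 0.88 at the high dose. Its values were highest on the third slide, for instance 2.30 in vehicle mouse 5, 2.41 in low-dose mouse 10 and 2.75 in medium-dose mouse 15. The liver trend called no member (0.0135% of all genes called, 1 member, Psmb10, and 9.05% of all genes with an unadjusted p under 0.05).

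**Figure D3:**
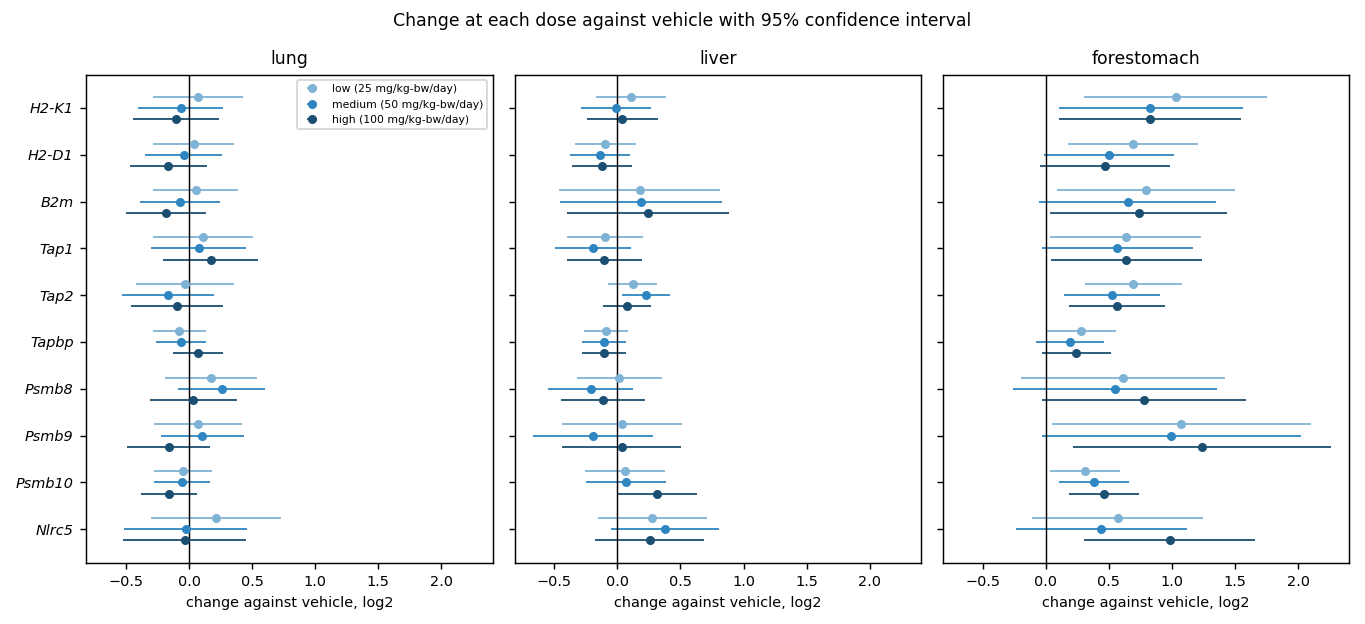
Changes of the 10 members against vehicle at each dose. The horizontal axis is the change on the log2 scale and the vertical axis lists the genes, with points for the estimates and lines for 95% confidence intervals, in lung, liver and forestomach. Values are loess-normalized. All forestomach estimates lie right of 0 and the lung and liver estimates lie on both sides of it.

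An interaction term tested if the tissues responded differently to the high dose. The difference of lung minus forestomach was below 0 for all 10 members, with a median of -0.70, and no member was called (0.309% of all genes called lower, 7 members and 11.5% of all genes at an unadjusted p under 0.05). The nearest to a call was Psmb10 at -0.62 ± 0.17 (adjusted p = 0.0737), and with the mouse as a replicate block, as the tissues of one animal were both measured, Psmb10 (-0.62 ± 0.11, adjusted p = 0.00607) and Nlrc5 (-1.02 ± 0.24, adjusted p = 0.0453) were called. Psmb10 was also called among probes above background alone (adjusted p = 0.044) and without mouse 7 (adjusted p = 0.0284), a low-dose mouse with no lung array that enters only through the spread. For liver minus forestomach all 10 were below 0 as well, with a median of -0.66 and no call (0.0323% of all genes called lower, 5 members and 7.27% of all genes at an unadjusted p under 0.05). For lung minus liver the median was -0.16 with no call (0.387% of all genes in either direction, 1 member and 10.8% of all genes at an unadjusted p under 0.05). Both comparisons with liver depended on the normalization: with median centring the medians were -2.58 for liver minus forestomach and 2.09 for lung minus liver, where all genes had -0.19 and 0.20, again with no call. The members' standard errors were then 0.58 to 1.82 and 0.55 to 1.81 in the same order.

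Genes around the members were examined in forestomach through lists drawn up with earlier results of these data known, so their counts are descriptive. None of these genes was called at any dose there. With its own test, the study listed Cd74 and H2-DMb1, genes of class II presentation, as higher in forestomach at the high dose. Of 23 interferon-stimulated genes, 22, 23 and 21 had a higher mean at the low, medium and high dose, with median changes of 0.41, 0.51 and 0.57. Of the 18 other class I heavy chains or class I-like genes 14, 17 and 15 were higher (medians 0.19, 0.26 and 0.19), and of 9 MHC class II genes 9, 8 and 9 (medians 0.31, 0.42 and 0.29). Of the 19 known regulators of class I genes 18, 17 and 16 were higher (medians 0.21, 0.15 and 0.20). Irf1 changed by 0.535 ± 0.309, 0.71 ± 0.31 and 0.72 ± 0.31 in the same order. The 12 other genes of the class I pathway had medians of 0.08, 0.07 and 0.05.

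Leukocyte markers as a list changed little in median in forestomach. Only 6 of the 14, and 3 of the 10 T and NK cell markers, were well above background on all 20 forestomach arrays. The mean over the 14 leukocyte markers ran from -0.71 to -0.58 in vehicle mice, -0.80 to -0.33 at the low dose, -0.69 to -0.45 at the medium dose and -0.71 to -0.51 at the high dose, with median changes of 0.04, 0.00 and -0.01. Of these leukocyte markers 7 of 14 had a higher mean at the high dose, and for 1 every high-dose mouse was above every vehicle mouse (1.32% of all genes). At the low, medium and high dose 3, 1 and 3 had an unadjusted p under 0.05 in either direction, beside 4.70%, 5.84% and 9.03% of all genes. For the 10 T and NK cell markers the ranges were -0.36 to -0.27, -0.42 to -0.03, -0.35 to -0.24 and -0.43 to -0.26. Ptprc gave 0.05 ± 0.13, 0.16 ± 0.13 and -0.02 ± 0.13. Cd8a, Cd79a and Ncr1 were well above background on no forestomach array, and of the T and NK cell list Cd8a, Ncr1 and Gzmb, so that a change in those cells was not measurable by these genes. Mouse 7 was the highest of the low-dose group in the leukocyte list (-0.33) and in the T and NK cell list (-0.03) too.

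**Figure D4:**
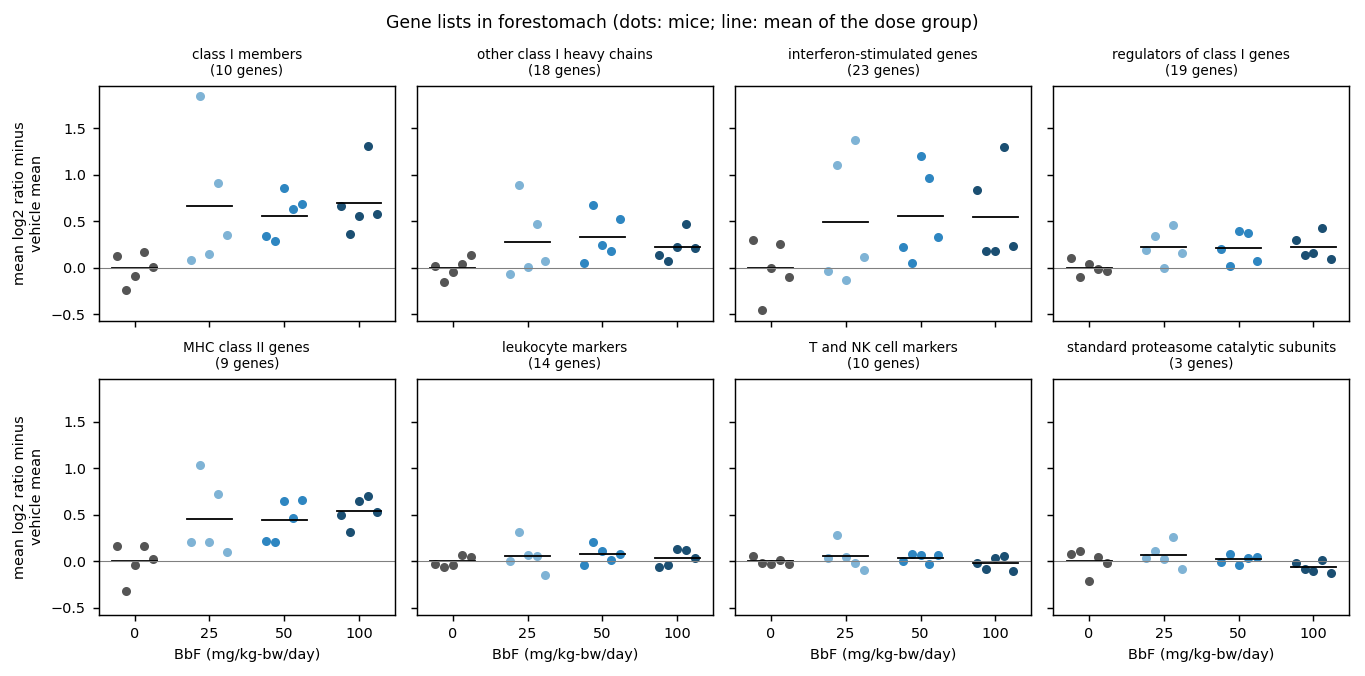
Mean of each gene list in every forestomach. The horizontal axis is the BbF dose in mg/kg-bw/day and the vertical axis the mean log2 ratio of the list minus its vehicle mean; dots are mice and lines the means of the dose groups. The 10 members, the interferon-stimulated genes and the MHC class II genes lie mostly above 0 in exposed mice, and the leukocyte, T and NK cell and standard proteasome lists lie around 0.

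In lung a few genes of these lists were called at the high dose while the members were not. Cd1d1, a class I-like molecule that presents lipids, was lower by 0.66 ± 0.11 (log2, adjusted p = 6.33e-04), and the NK cell receptors Ncr1 (-0.74 ± 0.15) and Klrb1c (-0.75 ± 0.18) were also lower. Of the 14 leukocyte markers 2 were called lower and 1 higher, and 8 had a higher mean. The endothelial markers Pecam1 and Cdh5 were higher by 0.74 ± 0.14 and 0.82 ± 0.20. Cd8a was higher by 0.38 ± 0.11 (adjusted p = 0.0345), under the fold threshold. It was well above background on 2 of 5 vehicle and 5 of 5 high-dose lungs, so its vehicle level rests partly on dim spots. Ptprc gave 0.16 ± 0.16 and Irf1 -0.12 ± 0.14. In liver no gene of any list was called at any dose, and Cd8a was above background on no array.

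The members tended to be high or low together in an animal. In lung the vehicle mouse 4 was the highest of its group in 9 of 10 members and the high-dose mouse 19 in 9 of 10, and low-dose mouse 6, the lung with high Krt4 and Krt13, was the lowest in all 10. Mouse 4 was the highest vehicle mouse in 9 of 10 members in liver as well, and mouse 19 in 9 of 10 at the high dose in forestomach. By the mean over the 10 members, mouse 4 was the highest vehicle mouse in all 3 tissues (lung 1.65, liver 1.12, forestomach -0.65) and mouse 19 the highest high-dose mouse in all 3 (1.51, 0.81 and 0.48). These are descriptions of single animals, and whether the tissues of a mouse vary together was not tested.

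**Figure D5:**
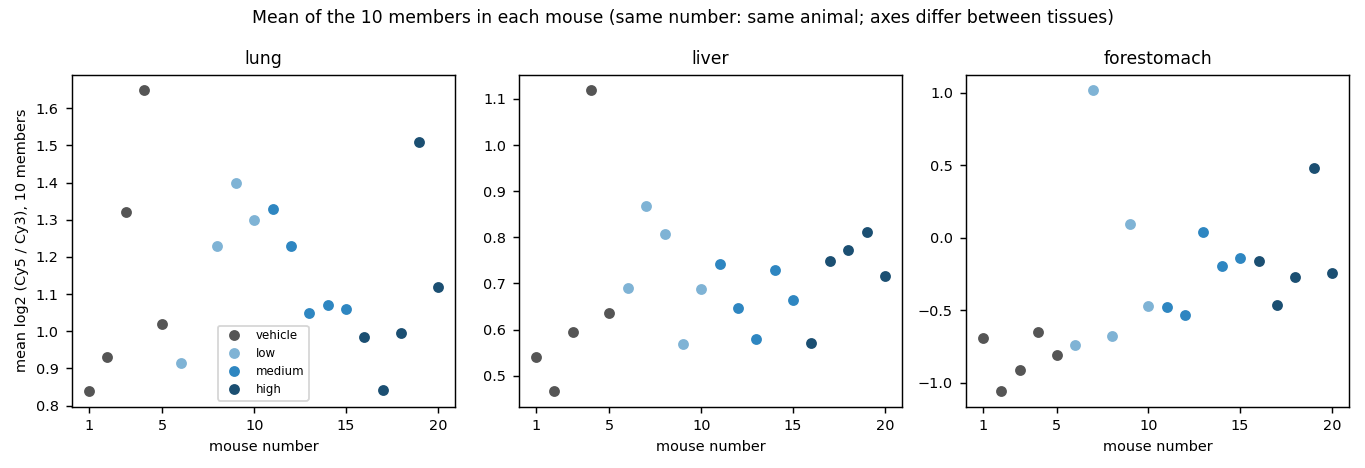
Mean of the 10 members in each mouse. The horizontal axis is the mouse number, the same animal in each tissue, and the vertical axis the mean log2(Cy5/Cy3) over the members, on a scale of its own in each tissue; colours are dose groups. Exposed forestomachs mostly lie above the vehicle ones, with mouse 7 at 1.02, and lung and liver groups overlap.

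The genes whose pattern was most like that of the members were found by the Pearson correlation with the mean of the 10 members over all 59 arrays, after the mean of each tissue had been taken off both, among 3292 probes well above background on every array. They were H2-K2 (r = 0.918), H2-Q2 (0.907), H2-T23 (0.902), H2-Q7 (0.884), H2-Q6 (0.865), Irf1 (0.782), Bst2 (0.704) and Psme1 (0.701). The arrays share slides and dose groups, and the correlations are given as a description. In forestomach at the high dose H2-Q7 changed by 0.60 ± 0.30, H2-Q2 by 0.46 ± 0.27, H2-T23 by 0.42 ± 0.27, Bst2 by 0.59 ± 0.24 and Psme1 by 0.14 ± 0.12, none called.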

How the data were processed

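RNA of lung, liver and forestomach was labelled with Cy5 and hybridised beside Cy3-labelled reference RNA to 2-colour Agilent mouse arrays without dye swap. The authors deposited scanner output of Feature Extraction 10.7.3.1, holding spot intensity in both channels, and a table of log2 ratios normalized by loess, which was used only as a check (r with the values here 0.967 to 0.999). Median intensity without background correction was normalized by loess within each array (limma 3.58.1, R 4.3.3), control spots were left out, spots of a probe were averaged, and 484 values were missing. Accessions were matched to symbols for 26413 of 55681 probes; 29268 kept the name in the file. The assembly of the files is mm9, and promoters are from GRCm38.p6.

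The study tested with MAANOVA's Fs statistic; limma's moderated test was used here, within tissues over all 4 dose groups and between tissues over all 8 groups of both tissues, with Benjamini-Hochberg adjustment. The mouse number in the labels marks the same animal in each tissue, and a fit with the mouse as a block was an alternative. In all 29 alternative settings were refitted, including each mouse left out. Only the dose fit within a tissue was tested on simulated data, with the means and spread of forestomach probes, independent noise and known changes. Slides, genes that vary together and comparisons between tissues were not simulated. Nothing in the labels bears on technical repeats, so p-values measure the spread between these animals and their arrays, whose number limits the precision. The members and gene lists were chosen with earlier results of these data known. Named are all 10 members, and of every other list at most 4 called genes per comparison with the largest change, beside Irf1, Psmb5, Psmb6, Psmb7, Ptprc and Cd8a. Some genes that this rule names are not reported here.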

Additional observations from a re-analysis of the deposited data

Results flagged for a closer look

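Of 120 groups of a member in a tissue and dose group, 7 held a mouse farther from the others than Dixon's 95% critical value allows, where chance gives about 1 in 20. In vehicle livers it was mouse 4 for 3 members: Tap1 at 0.838 (next mouse 0.183), Psmb8 at 0.836 (next 0.14) and Psmb9 at 1.52 (next 0.527). Mouse 19 stood apart at the high dose for Tap2 in forestomach, -0.489 against a next value of -1.14, and for Psmb9 in lung, 1.81 against 1.25. Mouse 14 stood apart at the medium dose as the lowest lung for Tapbp (0.605, next 0.802) and the highest liver for Psmb9 (0.924, next 0.432).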

How the results depend on the processing

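Across 18 comparisons, the number of members called stayed within 1.5-fold of that reported in 359 of 360 refits that left out 1 mouse and in 102 of 107 others. In all comparisons but those between vehicle tissues the reported number was 0. There, staying within this limit means only that no member became called. With median centring, 1 member was called in forestomach at the high dose (Psmb10), and 0 between vehicle lung and liver and 0 between vehicle liver and forestomach. For the high-dose effect of lung minus forestomach, 1 member was called among probes above background only (Psmb10) and 2 with the mouse as a replicate block (Psmb10 and Nlrc5), and 0 to 1 with a mouse left out, the 1 being Psmb10 without mouse 7. The block could be used only between tissues, since each mouse had 1 dose, and it moved no other count of called members by over 1.5 times. No called value changed sign. The mean of the 3 doses in place of the trend was added after seeing the data. Within-slide values have no test, and the first liver slide gives none for the high dose against vehicle. On the third liver slide few probes were well above background, which limits the liver values of Tap1 and Nlrc5 most. Without that slide the vehicle comparisons with liver called the same members. Median centring turned the sign of the members' median change in lung at the medium and high dose, in lung over the trend, in liver at the low and high dose and over the trend, and of the lung minus liver effect; the cause was not tested.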
